A study of Mus musculus with 2 samples.

Results

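The genes examined were the interleukin-18 gene Il18 and 9 genes that mature, bind, relay or restrain it and its relatives, namely Il18bp, Il1rap, Il1r1, Il33, Sigirr, Casp1, Casp4, Pycard and Myd88. They were chosen by name and found on the arrays through the accession of each probe, which gave 12 probes on 21 spots for the 10 genes, out of 20660 named genes with a probe. All 10 were measured, that is, they had 1 or more probes with a signal well above background in both pools, as did 15738 named genes in all. The Il18-/- sample was RNA pooled from 7 male mice that lack Il18, and the Il18+/+ sample was RNA pooled from 7 male wild-type mice. Both groups were on the C57Bl/6 N strain and 12 weeks of age, and no treatment is given for either. Each pool was labelled with the dye Cy3 and read on 1 Agilent one-colour array. The tissue is hippocampus in the title and tissue labels and prefrontal cortex in the RNA protocol and in 1 sentence of the design. How the Il18 allele was made, and whether the groups were littermates, is not given in the sources used here.

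Interleukin-18 is a cytokine of the interleukin-1 family that cells make as an inactive precursor. Caspase-1, activated on an inflammasome through the adaptor ASC, cuts the precursor into the active form, and interleukin-18 binding protein captures the active form outside the cell. The free cytokine binds a receptor of the chains encoded by Il18r1 and Il18rap, which recruits the adaptor MyD88 and passes the signal through IRAK kinases and TRAF6 to NF-kappaB. Interleukin-1 and interleukin-33 use the same adaptor through other receptor chains, with the Il1rap product as their shared co-receptor. In brain these pathways are best known from microglia and other glia and from vessels.

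The arrays used here come without probe sequences. Promoters are shown for Il18 and Il1rap, the members that differed by more than 1.5-fold, to place them on the genome and to show how unlike their start regions are. RefSeq (GRCm38.p6) held a promoter for 9 of the 10 members, all but Sigirr. Each sequence below is the 250 bases before the annotated start, read along the gene, and capitals mark a match to a searched motif.
Il18, chr9:50554450-50554699, + strand: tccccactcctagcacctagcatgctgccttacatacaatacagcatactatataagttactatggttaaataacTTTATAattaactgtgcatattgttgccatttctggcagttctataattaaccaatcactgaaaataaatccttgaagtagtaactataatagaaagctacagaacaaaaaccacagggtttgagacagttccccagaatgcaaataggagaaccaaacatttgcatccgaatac
Il1rap, chr16:26581455-26581704, + strand: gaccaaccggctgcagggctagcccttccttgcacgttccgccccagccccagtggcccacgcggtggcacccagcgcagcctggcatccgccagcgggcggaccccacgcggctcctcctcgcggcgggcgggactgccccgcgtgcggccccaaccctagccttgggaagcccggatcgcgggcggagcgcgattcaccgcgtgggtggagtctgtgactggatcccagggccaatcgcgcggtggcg
The Il18 window was 35.6% G or C and held 1 CG pair, and the Il1rap window was 74.4% G or C and held 30. Across all 32851 listed start sites the median was 52.4% G or C and 6 CG pairs. Searched on both strands were GAGGAA, the core bound by the myeloid factor PU.1, TTCNNNGAA, the interferon-gamma activated site, TGANTCA, an AP-1 site, TATAAA, the TATA element, and CACGTG, an E-box. The Il18 window held 1 of these, TATAAA on the opposite strand, at 175 to 170 bases before the start, and 12.4% of all windows held that motif. The Il1rap window held none of them. GAGGAA stood on the opposite strand before Casp1 and before Pycard, against 23.3% of all windows with that motif. CACGTG stood before Casp1 (6.02% of all windows), TATAAA before both starts of Il33 and before Myd88, and TTCNNNGAA before Myd88 (7.02%). A match is a run of letters and not a site, and nothing follows here from a window without one.

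Il18 itself had the most negative difference of the 10 genes, and some signal was left in the mice that lack it. Its probe had an intensity of 655 scanner units in the Il18-/- pool, against 1798 in the Il18+/+ pool. Set against the 75th percentile of each array, the log2 level was -0.12 in Il18-/- and 1.37 in Il18+/+. Il18 thus read 2.80-fold lower in Il18-/-, at 35.7% of the Il18+/+ level, and it was well above background on both arrays. Which part of Il18 was altered, and whether the probe lies inside it, is not given in the sources used here. What is left of the signal therefore checks neither the genotype nor the loss of the protein.

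The Il18 value rests on 1 spot per array, and with 1 pool per genotype no difference in these data has a replicate check and no test was possible. The scanner software estimates an error for each spot, which for Il18 gave a standard error of 0.20 on the log2 difference of -1.49. This error is the software's estimate for the reading of a spot and leaves out differences between animals and between pools. It came to 0.20 or 0.21 for each of the 7 members read by 1 spot, whatever their level. Over the 10 spots of Myd88 the difference spread by 0.12 (SD), which was less than this estimate. Among the 1000 measured probes closest to Il18 in level, 2 differed by as much in the same direction, and the central 95% of them lay between -0.49 and 0.36. The Il18 spot lay in column 1 of the array, at its edge, where the 18 nearest measured spots had a median difference of -0.02 and ranged from -0.74 to 0.28. Of all 15738 measured genes, 71 (0.451%) were at least 2-fold lower in Il18-/-.

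Genes beside Il18 on chromosome 9 differed as well, on 1 side of it. The nearest measured genes on that side in the RefSeq order, Bco2 and Pts, differed by -1.27 and -1.06 on the log2 scale. Those on the other side, Sdhd and Timm8b, differed by -0.14 and 0.22. The 5 named genes whose difference was closest to that of Il18 over the 2 arrays were Sult1c2 at -1.47, Tex22 at -1.51, Col8a1 at -1.45, Ssh1 at -1.45 and Aqp1 at -1.54. Each was read by 1 measured probe, and closeness in 1 difference is all that ties them to Il18 here. Aqp1 is also on the list of 13 choroid plexus markers described below.

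Markers of some cells also differed between the pools, and their part in the Il18 value was not tested. The marker lists were chosen with earlier results of these data known. Of all measured genes, 2.57% were at least 1.5-fold lower in Il18-/- and 1.68% at least 1.5-fold higher. All 13 choroid plexus markers were measured and at least 1.5-fold lower in Il18-/-, with a median of -1.18 and a summed signal of 192 in Il18-/- against 382 in Il18+/+, in units of the 75th percentile. All 8 measured markers of the medial habenula were higher, of 10 in the list, with a summed signal of 8.58 in Il18-/- and 2.45 in Il18+/+, while Chrna3 and Chrnb3 were not measured. All 10 measured liver markers were higher, of 12, with 6.65 in Il18-/- and 1.96 in Il18+/+, while Apoa1 and Ttc36 were not measured. Ttr, the choroid plexus carrier of thyroxine, read 7.05 in Il18-/- and 8.01 in Il18+/+. Microglial markers, of the cells in which Casp1, Casp4, Pycard and Myd88 are best known in brain, had 10 of 18 lower, none at 1.5-fold, a median of -0.04, and a summed signal of 75.1 in Il18-/- and 74.5 in Il18+/+. In pooled tissue RNA, fewer cells of a type and less RNA per cell cannot be told apart. Medians were -0.20 for 10 oligodendrocyte markers, 9 of them lower, 0.00 for 10 astrocyte markers, -0.02 for 10 neuronal, -0.09 for 10 endothelial and 0.04 for 7 oligodendrocyte precursor markers, with none at 1.5-fold. They were 0.08 for 4 measured markers of perivascular macrophages, 0.11 for 6 of ependyma and 0.05 for 6 of blood leukocytes, with 0, 2 and 2 at least 1.5-fold higher. Of 10 hippocampal markers picked after the data were seen, among them the dentate gene Prox1, all 10 were measured on both arrays, with 7 higher and 3 lower in Il18-/-, none at 1.5-fold and a median of 0.18.

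**Figure D1:**
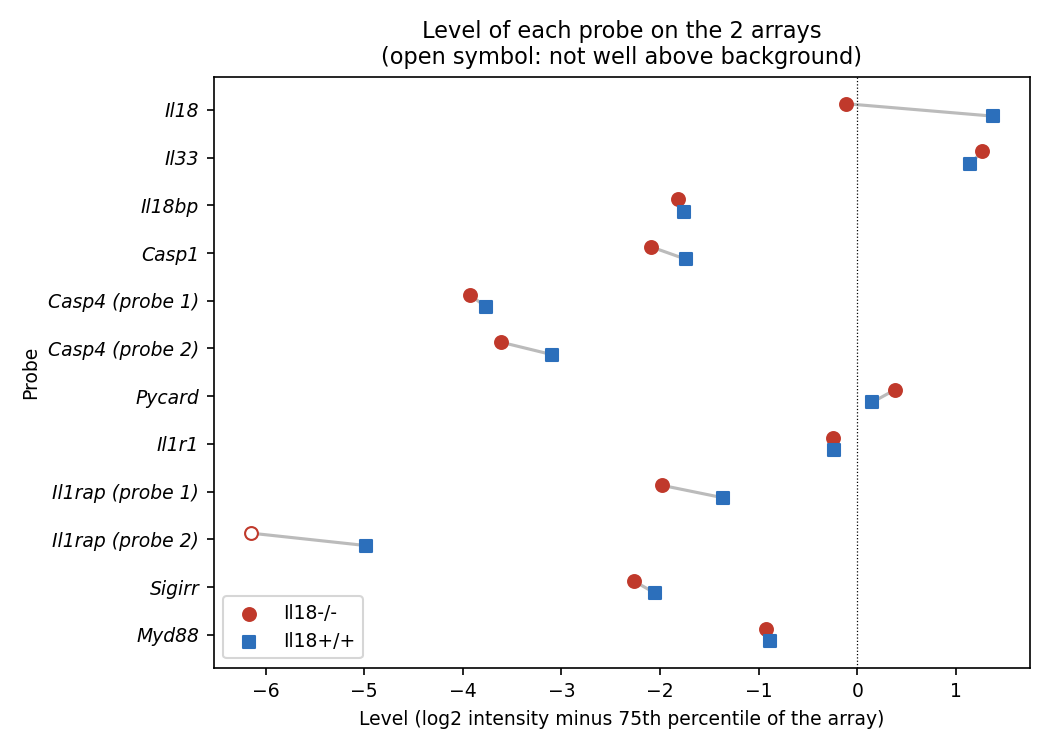
Level of each of the 12 probes of the 10 genes, on the horizontal axis as log2 intensity minus the 75th percentile of the array, with red circles for the Il18-/- array and blue squares for the Il18+/+ array (1 array each, no error bars). Symbols are to be compared within a row only. Il18 reads -0.12 in Il18-/- and 1.37 in Il18+/+, and the open circle is the second Il1rap probe, which was not well above background in Il18-/-.

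The other ligand among the members, Il33, was among the 2 members that read higher in Il18-/-. Il33 encodes interleukin-33, an alarmin kept in the nucleus and, in mouse brain, made mostly by glia. Its probe had an intensity of 1702 in Il18-/- and 1536 in Il18+/+, which differ by 0.12 on the log2 scale with a scanner standard error of 0.20. The difference was thus smaller than this estimated error. Scaled to spike-in control RNA instead, which shifts each gene by 0.31 towards lower values in Il18-/-, it was -0.20.

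Il18bp, which encodes the secreted decoy that neutralises interleukin-18, read almost alike on both arrays. Its intensity was 202 in Il18-/- and 206 in Il18+/+, a difference of -0.06 with a scanner standard error of 0.21. Of the 1000 probes nearest in level, 483 read as low. On the median spot signal the difference was 0.09 with normexp and 0.10 with no background correction, so the direction depends on how the spot is read.

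Averaged over probes, none of the processing genes reached 1.5-fold or 2 scanner standard errors, with Casp1 and Casp4 below 0 and Pycard above it. Casp1, the protease that matures interleukin-18 and interleukin-1 beta, had an intensity of 167 in Il18-/- and 208 in Il18+/+, which is 1.28-fold lower in Il18-/-. Its difference of -0.35 was 1.69 times its scanner standard error of 0.21, and 7.89% of all measured genes were as low. Casp4, the mouse caspase also called caspase-11, senses cytosolic lipopolysaccharide and lies next to Casp1 on chromosome 9. Its probes read the same transcript, with 46.5 in Il18-/- and 51.1 in Il18+/+ for the first and 58.2 in Il18-/- and 81.4 in Il18+/+ for the second. Both were lower in Il18-/-, by 0.17 and 0.52 on the log2 scale, or 0.63 and 2.12 times their scanner standard errors. Their mean was -0.34 with a scanner standard error of 0.18. The 2 probes of Casp4 thus gave sizes that differed by more than the mean itself.

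Pycard, which encodes the inflammasome adaptor ASC, had the most positive difference of the 10 genes. Its intensity was 922 in Il18-/- and 770 in Il18+/+, or 1.17-fold higher in Il18-/-, a difference of 0.23 with a scanner standard error of 0.20. Among the 1000 probes nearest in level, 83 read as high. The value turned to -0.08 under the spike-in scaling. No processing gene reached 1.5-fold except under that scaling, where Casp1 was at -0.67 and Casp4 at -0.65.

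Among the receptor chains, Il1rap stood apart from Il1r1 and Sigirr. Il1rap encodes the co-receptor shared by the interleukin-1, interleukin-33 and interleukin-36 receptors, and it is no part of the interleukin-18 receptor. It was read by probes to different RefSeq transcripts. The probe to NM_134103 had an intensity of 180 in Il18-/- and 271 in Il18+/+, which is 1.53-fold lower in Il18-/-. Its difference of -0.62 was 2.97 times its scanner standard error of 0.21, and 18 of the 1000 probes nearest in level were as low. The 18 measured spots nearest to it had a median difference of 0.04 and ranged from -0.65 to 0.14, so the lowest was below Il1rap itself.

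The probe to NM_008364 had an intensity of 10.01 in Il18-/-, where it was not well above background, and 22.0 in Il18+/+, where it was. Set against the lowest signal among spots well above background on the Il18-/- array, it was at least 1.44-fold lower in Il18-/-. Of 27234 named probes, 583 (2.14%) were well above background on the Il18+/+ array only and 275 on the Il18-/- array only. The dim probe thus read lower in Il18-/- as well, by that bound only. Being well above background on the Il18+/+ array only already favours a lower reading in Il18-/-. The direction of the dim probe is therefore no second check on the measured one. The bound leaves out the reading error of the Il18+/+ spot. The log2 difference of the dim probe, -1.16, was 1.85 times its scanner standard error of 0.63. On the measured probe alone, the call at 1.5-fold was narrow: the difference was -0.56 when arrays were scaled to the median, -0.57 with loess and -0.54 with normexp, all short of 1.5-fold.

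Among the genes closest to Il1rap in difference were Sfrp1, Vmn1r63, Clic3 and Cd7, all at -0.62, each by 1 measured probe over the 2 arrays. Of all measured genes, 350 (2.22%) were as low as Il1rap. The value therefore lies near the edge of the bulk, 90% of the genes being between -0.45 and 0.33.

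Il1r1, which encodes the signalling receptor of interleukin-1, read nearly alike on both arrays under the 75th percentile scaling. Its intensity was 599 in Il18-/- and 588 in Il18+/+, a difference of -0.01 with a scanner standard error of 0.20 and of 0.05 when arrays were scaled to the median. Under the spike-in scaling it was -0.32. Sigirr encodes a receptor of the same family that dampens interleukin-1 and interleukin-18 signals. Its intensity was 147 in Il18-/- and 168 in Il18+/+, or 1.16-fold lower in Il18-/-, a difference of -0.22 with a scanner standard error of 0.21.

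**Figure D2:**
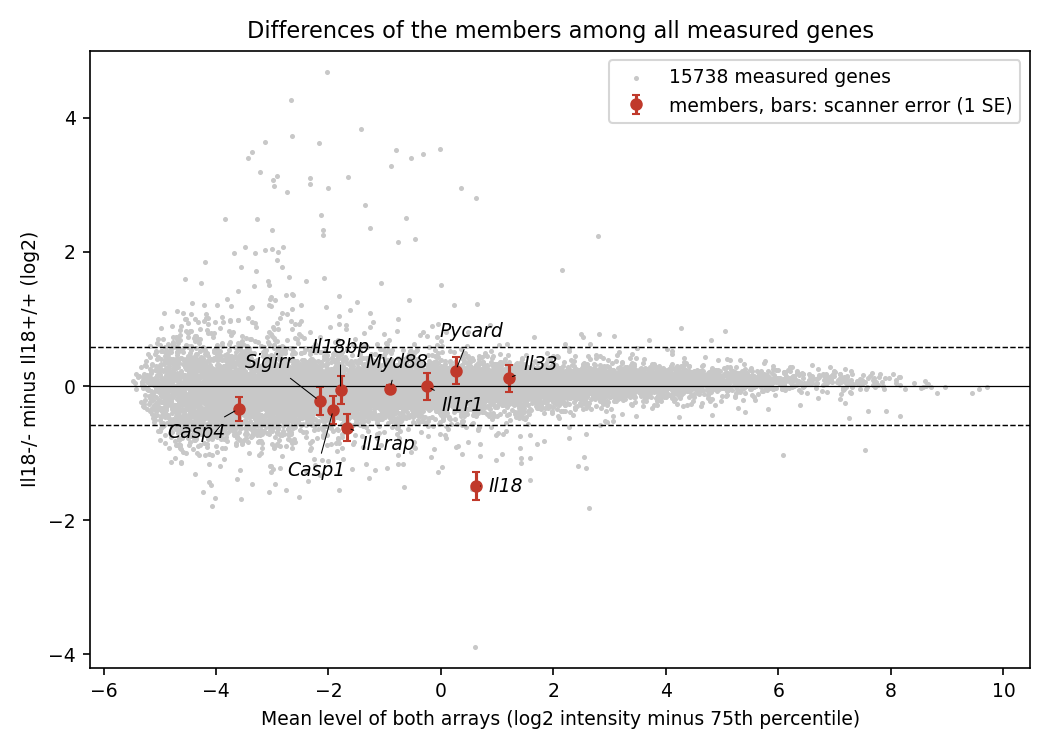
Log2 difference, Il18-/- minus Il18+/+, on the vertical axis against the mean level of both arrays on the horizontal axis for 15738 measured genes (grey) and the 10 members (red, bars of 1 scanner standard error), with dashed lines at 1.5-fold. Il18 at -1.49 lies below nearly all genes around its level, Il1rap at -0.62 lies at the line, and the other 8 members lie inside it.

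Myd88, the adaptor used by the receptors of interleukin-1, interleukin-18 and interleukin-33, was the best measured of the 10 genes, since the arrays carry its probe 10 times. Over these spots the intensity ranged from 354 to 402 with a median of 374 on the Il18-/- array, and from 339 to 413 with a median of 379 on the Il18+/+ array. The ranges overlapped, and the Il18-/- spots lay within the range of the Il18+/+ spots. The mean log2 difference was -0.04 ± 0.12 (SD, n = 10 spots per array), with 6 spot positions lower and 4 higher in Il18-/-, and it was 0.02 when arrays were scaled to the median. The repeated spots share 1 labelled RNA per array, so they measure the error of reading and not that of the mice. The coefficient of variation between spots was 3.57% in Il18-/- and 6.76% in Il18+/+. Over 305 measured probes with repeated spots, the median spread of the difference was 0.07 (SD) and the 95th percentile was 0.28, which is spread within the arrays and not between pools. The differences of Il18, Il1rap, Casp1 and Casp4 were larger than both, although the first Casp4 probe alone, at -0.17, was larger than the median only. Of the 1000 probes nearest in level, however, 120 were as low as Casp1, and 431 and 92 were as low as the 2 Casp4 probes. The Casp1 and Casp4 probes lay inside the central 95% of the probes nearest to them in level.

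**Figure D3:**
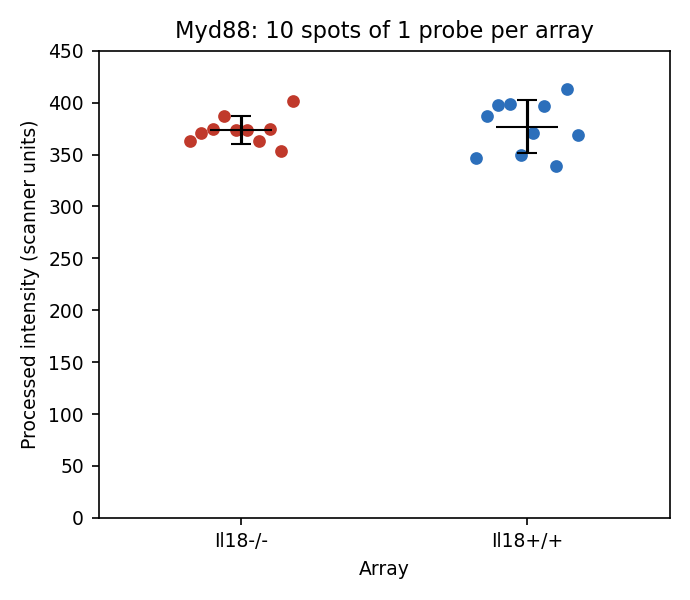
Processed intensity of the 10 spots of the Myd88 probe on each array, with Il18-/- on the left and Il18+/+ on the right, and bars for the mean and SD over spots. The spots run from 354 to 402 in Il18-/- and from 339 to 413 in Il18+/+, so the arrays overlap.

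Across the 10 genes, 8 read lower and 2 higher in Il18-/-, with a median difference of -0.14, against a median of 0.01 over all measured genes, of which 47.4% were lower. The number lower was 6 when arrays were scaled to the median, 7 with normexp and with no background correction, and 10 under the spike-in scaling, where Il33 and Pycard changed side. At 1.5-fold, 2 of the 10 were lower and 0 higher, beside 2.57% of all measured genes lower and 1.68% higher, 4.26% together. Since Il18 is the gene that the Il18-/- mice lack, the count for the others is 1 of 9, Il1rap, with 7 of 9 lower and a median of -0.06. Averaged over the measured probes of a gene, only Il18 and Il1rap differed by more than 2 scanner standard errors. The other 8 lay inside the range that holds the central 90% of all measured genes. With 9 genes beside Il18 and 1 array per genotype, a share of 1 in 9 cannot be set apart from the share in all genes.

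The chains that bind interleukin-18 gave no signal to compare. Both probes of Il18r1, the binding chain, were not well above background on either array, with 4.16 and 4.36 in Il18-/- and 3.86 and 4.04 in Il18+/+. The probe of Il18rap, the co-receptor chain, had 6.74 in Il18-/- and 4.17 in Il18+/+ and was not well above background either. The lowest spot counted as well above background had an intensity of 15.6 in Il18-/- and 14.7 in Il18+/+. Il1b, which encodes interleukin-1 beta, was read by 10 spots that ranged from 3.70 to 21.0 in Il18-/- and from 5.24 to 15.8 in Il18+/+, of which 1 in Il18-/- and 0 in Il18+/+ were well above background. Levels of these genes were below what the arrays can measure in whole-tissue RNA, which does not show that they are absent.

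The wider pathway was described through 7 lists of 109 genes, of which 103 had a named probe and 79 were measured. Of these 79, none reached 1.5-fold in either direction, beside 4.26% of all measured genes, 42 were lower and 37 higher, and the median was -0.01. The count was 10 lower under the spike-in scaling, among them Casp8, Irak3, Irak4, Ccl4, Ccl5 and Vcam1, beside 12.7% of all genes. It was 2 lower with the authors' deposited values, Irak3 and Ccl5, 1 lower with the brightest probe, Irak4, and 1 lower with neighbouring spots subtracted, Ccl5. With no filter on dim probes 4 of 103 were higher and 3 lower, beside 10.5% of all genes, and all 7 were among those not measured otherwise. Of the 8 further ligands of the interleukin-1 family, 4 had a named probe and none was measured. Of the 7 other receptors of the family, 3 were measured. Il1rapl2, a neuronal relative of Il1rap, was 1.33-fold lower in Il18-/-, with -2.88 in Il18-/- and -2.47 in Il18+/+. Il1rl1, the interleukin-33 receptor, differed by 0.23 and the synaptic receptor gene Il1rapl1 by -0.05.

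Of 22 inflammasome and pyroptosis genes 16 were measured, 9 lower and 7 higher, with a median of -0.03. The sensor gene Nlrp1a differed by -0.37, but its probes gave -0.69 and -0.05. Casp8, an initiator caspase of apoptosis, differed by -0.44, and Txnip, a redox protein that binds NLRP3, by -0.37. The sensor gene Nlrp3 differed by 0.20, and Gsdmd, whose product forms the pore through which interleukin-18 leaves the cell, by -0.04.

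All 27 kinase and adaptor genes below the receptors were measured, 15 lower and 12 higher, with a median of -0.01. Irak3, a negative regulator of the pathway, differed by -0.56 with dim levels of -5.03 in Il18-/- and -4.47 in Il18+/+. Irak4, the kinase that MyD88 recruits first, differed by -0.48, also at dim levels, and Peli2, a ubiquitin ligase of the pathway, by 0.34. NF-kappaB subunits and inhibitors were measured in 9 of 10 cases, 6 lower and 3 higher, with a median of -0.06. Bcl3 at -0.29, Nfkb2 at -0.25 and Nfkbie at 0.21 differed most among them.

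NF-kappaB target genes were measured in 15 of 20 cases, 8 lower and 7 higher, with a median of -0.03. The chemokine genes Ccl5 and Ccl4 differed by -0.55 and -0.52 and the adhesion gene Vcam1 by -0.48, its probes giving -0.74 and -0.22. Tnf and Il6 were not measured. Of 15 genes of the interferon-gamma axis, which interleukin-18 is known to induce in lymphocytes, 9 were measured, 7 higher and 2 lower, with a median of 0.06. Tbx21, which encodes the transcription factor T-bet, differed by 0.27, Ifngr2, a receptor chain, by 0.26 and Il15ra by 0.17. Ifng itself was not measured. Each list median other than that of the interferon-gamma axis lay below the 0.01 of all genes, and scaling to the spike-in controls made all 6 list medians negative, as it did the median of all genes, at -0.30.

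**Figure D4:**
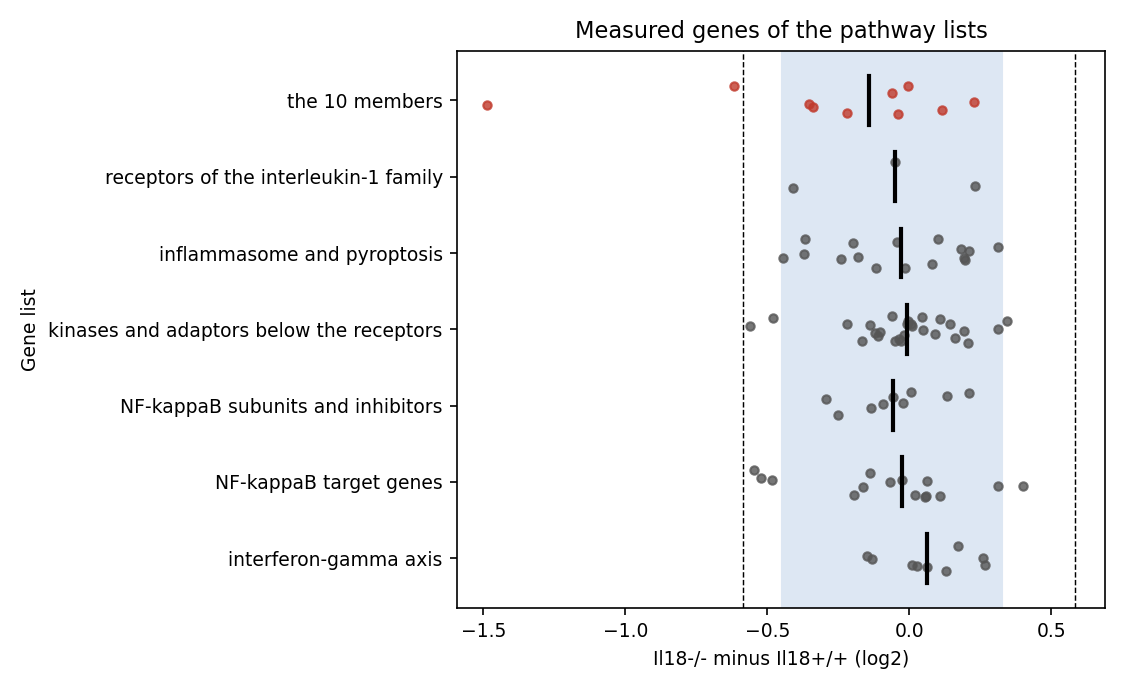
Log2 difference, Il18-/- minus Il18+/+, of the 10 members (red) and of the measured genes of 6 pathway lists (grey), with a black bar at each median, a shaded band for the central 90% of all measured genes and dashed lines at 1.5-fold. The members' median is -0.14 and those of the lists lie between -0.06 and 0.06, and only Il18 and Il1rap lie beyond a dashed line.

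**Figure D5:**
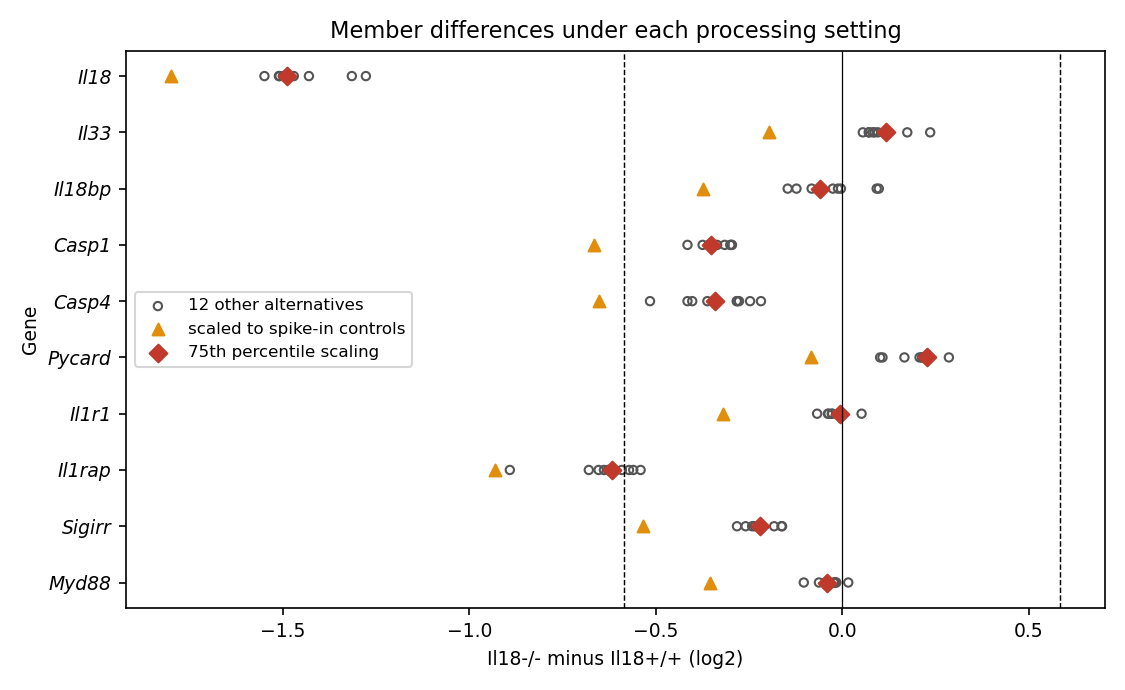
Log2 difference, Il18-/- minus Il18+/+, of each member under the 75th percentile scaling (red diamonds), under scaling to spike-in controls (orange triangles) and under 12 other alternatives (open circles), with dashed lines at 1.5-fold. Il18 lies beyond the line under every setting shown, between -1.80 and -1.28, and Il1rap lies on both sides of it, between -0.93 and -0.54.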

How the data were processed

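Per the labels, RNA of 7 mice was pooled for each genotype, and each pool was hybridised with the dye Cy3 to 1 one-colour array. The submitters' processing notes and the file headers name Agilent Feature Extraction 10.10.1.1, which made the deposited intensity values, background-subtracted and not scaled between arrays. The array design refers to mm9, from which no coordinates were used. Further columns of the deposited files were used as given: well-above-background, outlier and saturation flags, which are 0 or 1 per spot, and the other spot values. The arrays shared 1 slide and 1 scan. In the authors' deposited value table, this intensity is multiplied by a factor, namely 1.92 in the Il18-/- column and 2.05 in the Il18+/+ column. It is linear and not centred, and its medians were 139 in Il18-/- and 152 in Il18+/+. What set the factors is unknown.

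Of 62976 spots, 3671 controls and spots flagged as outliers on either array were left out, and 0 were saturated. The log2 intensity minus the array's 75th percentile (710 for Il18-/-, 695 for Il18+/+) was averaged over the spots of a probe and then over the measured probes of a gene. A probe was measured when at least 50% of its spots were well above background on each array, and 65.4% of probes were so in Il18-/- and 67.2% in Il18+/+. Probes took their names from RefSeq (GRCm38.p6) through unversioned accessions, which named 27234 of 55675 probes. Differences are Il18-/- minus Il18+/+, and a gene was counted at 1.5-fold.

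With 1 pool per genotype no test was made, and the precision is limited by the number of arrays. The members and lists were chosen with earlier results of these data known. Named genes were the members, all genes at 1.5-fold and the 3 largest differences per pathway list, the 2 brightest genes per marker list and the 5 genes nearest in difference to Il18 and to Il1rap. Of these, 1 gene near Il1rap is not reported here. Bco2, Pts, Sdhd, Timm8b, Nlrp3, Gsdmd and the unmeasured genes were named outside that rule after their values were seen. In all 13 alternatives were run, 12 set out earlier and 1 added after the data were seen. The calculations were tested on simulated data. R 4.3.3 with limma 3.58.1 gave the normexp values, and Python 3.11.15 with pandas 2.3.3, numpy 2.4.6, statsmodels 0.14.6 and scipy 1.17.1 the rest.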

Additional observations from a re-analysis of the deposited data

How the results depend on the processing

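Il18 was lower in Il18-/- under all 13 alternatives, with a difference of -1.49 that became -1.80 with scaling to spike-in controls, -1.28 with normexp and -1.32 with no background correction, the last 2 on the median spot signal. The median of the 10 members, -0.14, became -0.45 and that of the 79 pathway genes, -0.01, became -0.33 with the spike-in controls, a shift of 0.31 for all genes alike. The members at 1.5-fold numbered 2, Il18 and Il1rap. They were 1, Il18, with the median of all spots, with loess and with normexp, and 4 with the spike-in scaling, which adds Casp1 and Casp4. Of all measured genes 670 reached 1.5-fold, 265 higher and 405 lower. That count was 1991 with the spike-in scaling (128 higher, 1863 lower), 221 with normexp (114 and 107), 280 with no background correction (133 and 147) and 2170 with no filter on dim probes (814 and 1356). The split was 312 higher and 324 lower with quantile normalization, 321 and 317 with the median, 320 and 304 with loess and 221 and 550 with the authors' deposited values. Subtracting the neighbouring spots, chosen after the data were seen, gave -1.47 for Il18. Beyond construction, causes were not tested. No paired analysis was possible because each genotype had 1 array. Leaving out a sample was not possible for the same reason. Dim signals limit Casp4 and the second Il1rap probe most.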
